A study of Arabidopsis thaliana with 6 samples.

Results

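The chloroplast genome features in small RNA libraries of Arabidopsis thaliana pollen are the 125 single IDs that begin with ATCG, out of 60936 IDs in the tables. They were chosen by that prefix alone, and their 149 rows were summed per ID, 102 IDs having 1 row, 22 having 2 and 1 having 3. Another 4 ATCG entries join 2 IDs each, which makes 129 entries in all, and were not counted as members. The pollen came from plants of accession Col, and the study is about a link between PAPS1 and DNA methylation directed by small RNAs. One group carried paps1-3, a mutant allele of PAPS1, the gene of a nuclear poly(A) polymerase, and the other was wild type (WT). Sorting split each of 3 pollen isolations into mutant and WT grains, so genotype and sort gate cannot be told apart. Each genotype had 3 libraries, which keep the submitters' numbers (paps1-3 16, 20 and 26, and WT 15, 19 and 25). No label tells which libraries share an isolation, nor which plants an isolation came from. The p-values therefore describe library-to-library spread, which may be technical. The libraries were built to hold inserts of about 19 to 25 bases, and the tables count reads of 18 to 28 nt per feature and length. The paps1-3 libraries held 5562287 to 9922763 counted reads with 31854 to 61823 on chloroplast features, and the WT libraries held 9312167 to 10139424 with 84122 to 90894.

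The chloroplast genome encodes ribosomal and transfer RNAs, proteins of photosynthesis, ribosomal proteins and subunits of an RNA polymerase. Its transcripts are cut and trimmed by ribonucleases, and RNA-binding proteins of the pentatricopeptide repeat family and related helical-repeat proteins shield transcript ends, so that short protected pieces can survive as small RNAs. Pieces of plastid rRNA and tRNA are common in plant small RNA libraries. Dicer enzymes, which make the 21-, 22- and 24-nt classes of nuclear small RNAs, are not known to act inside plastids. Pollen plastids do not photosynthesise, and in Arabidopsis plastids pass mainly through the mother. Only 6 of the 125 IDs are paired with a product in the annotation text used here, so the others are called by their IDs.

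Some plastid reads cannot be told from reads of other genomes by sequence, and 2 tRNA genes with close copies elsewhere are shown for that reason. The RefSeq assembly TAIR10.1 has 2 copies of the plastid tRNA-Asn gene trnN, at chloroplast:109013-109084 on the minus strand and chloroplast:129565-129636 on the plus strand, with the same 72 bases. The nuclear gene AT2G07764 at chr2:3496440-3496511 (plus strand) and the mitochondrial gene trnN(GTT) at mitochondrion:43544-43615 (plus strand) each differ from it by 1 base, and share an unbroken run of 55 bases with it. Capitals mark the base that differs from the plastid gene.
plastid trnN: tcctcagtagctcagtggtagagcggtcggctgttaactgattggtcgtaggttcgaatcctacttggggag
AT2G07764: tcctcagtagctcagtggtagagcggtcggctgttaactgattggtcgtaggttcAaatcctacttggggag
mitochondrial trnN(GTT): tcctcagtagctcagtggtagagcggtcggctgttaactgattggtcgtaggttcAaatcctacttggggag
The plastid tRNA-Tyr gene trnY (chloroplast:30323-30406, minus strand) is identical over 84 bases to the nuclear pseudogene AT3G20365 (chr3:7104309-7104392, plus strand), with no base in capitals.
plastid trnY: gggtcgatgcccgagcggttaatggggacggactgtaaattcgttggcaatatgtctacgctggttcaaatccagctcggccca
AT3G20365: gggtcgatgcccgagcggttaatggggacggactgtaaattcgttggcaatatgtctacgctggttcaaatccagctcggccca
Of the 37 plastid tRNA genes in that annotation, 5 had at least 40% of their 21-base words in the mitochondrial genome (trnD, trnM, both copies of trnN, and trnW), and 24 had none. Of the 131 plastid gene records, 33 are present in 2 copies.

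Chloroplast features took a smaller share of the small RNA pool in paps1-3 than in WT. The share was 0.402%, 0.660% and 0.623% of counted reads in paps1-3 libraries 16, 20 and 26, and 0.842%, 0.862% and 0.976% in WT libraries 15, 19 and 25. The genotypes did not overlap, with means of 0.562% ± 0.139 in paps1-3 and 0.893% ± 0.0722 in WT (SD, n = 3 each, ratio 0.629, exact two-sided permutation p = 0.1, which no 3-against-3 comparison can go below). Without mitochondrial features in the denominator, the share was 0.669% ± 0.183 in paps1-3 and 0.940% ± 0.0756 in WT, again with no overlap (SD, n = 3 each, ratio 0.711, exact permutation p = 0.1). Nuclear rRNA, tRNA, snRNA and snoRNA features were then left out too, while plastid rRNA and tRNA stayed in. The share was then 3.42% ± 0.442 in paps1-3 and 3.26% ± 0.149 in WT, with overlapping libraries (SD, n = 3 each, ratio 1.05, exact permutation p = 0.6). The direction of the whole class thus depended on the denominator. Mitochondrial features moved the other way, at 12.8% to 18.1% of counted reads in paps1-3 against 4.18% to 5.90% in WT. In a bulk sample, fewer plastids or cells and less RNA per cell cannot be told apart.

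Reads were concentrated on few features. All 390795 chloroplast reads fell on the 125 IDs at 10 to 51949 reads each, with a median of 780, and each WT library had reads on all 125 while the paps1-3 libraries had reads on 123 or 124. Of all chloroplast reads, 50% lay on 5 IDs, 80% on 25 and 90% on 44, and 10 IDs had under 100 reads. ATCG01210, ATCG00920, ATCG00950 and ATCG01180 alone held 49.99%. ATCG01210 stood at 469, 865 and 732 RPM (counted reads scaled to the library total) in paps1-3 16, 20 and 26, and at 1429, 997 and 1283 RPM in WT 15, 19 and 25. ATCG00950 stood at 384, 666 and 573 RPM in paps1-3 and at 1133, 1105 and 1214 RPM in WT. All paps1-3 libraries lay below all WT libraries for both IDs on this scale. The next IDs in order were ATCG00090, ATCG00010, ATCG00230, ATCG00260, ATCG00450, ATCG00620, ATCG01170, ATCG00960, ATCG00060, ATCG01030 and ATCG00020. The order of neighbours was not firm everywhere. ATCG00090 averaged 434 ± 123 RPM in paps1-3 and 318 ± 67.3 RPM in WT, and ATCG00010 363 ± 118 and 165 ± 48.1 RPM (SD, n = 3 each). Their ranges overlapped in paps1-3, but within each library ATCG00090 lay above ATCG00010. ATCG00230 and ATCG00260 changed order between libraries. They averaged 112 ± 18.2 and 113 ± 17.1 RPM in paps1-3 and 153 ± 24.8 and 144 ± 17.9 RPM in WT. RPM is not divided by feature length, so levels between IDs are not densities.

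**Figure D1:**
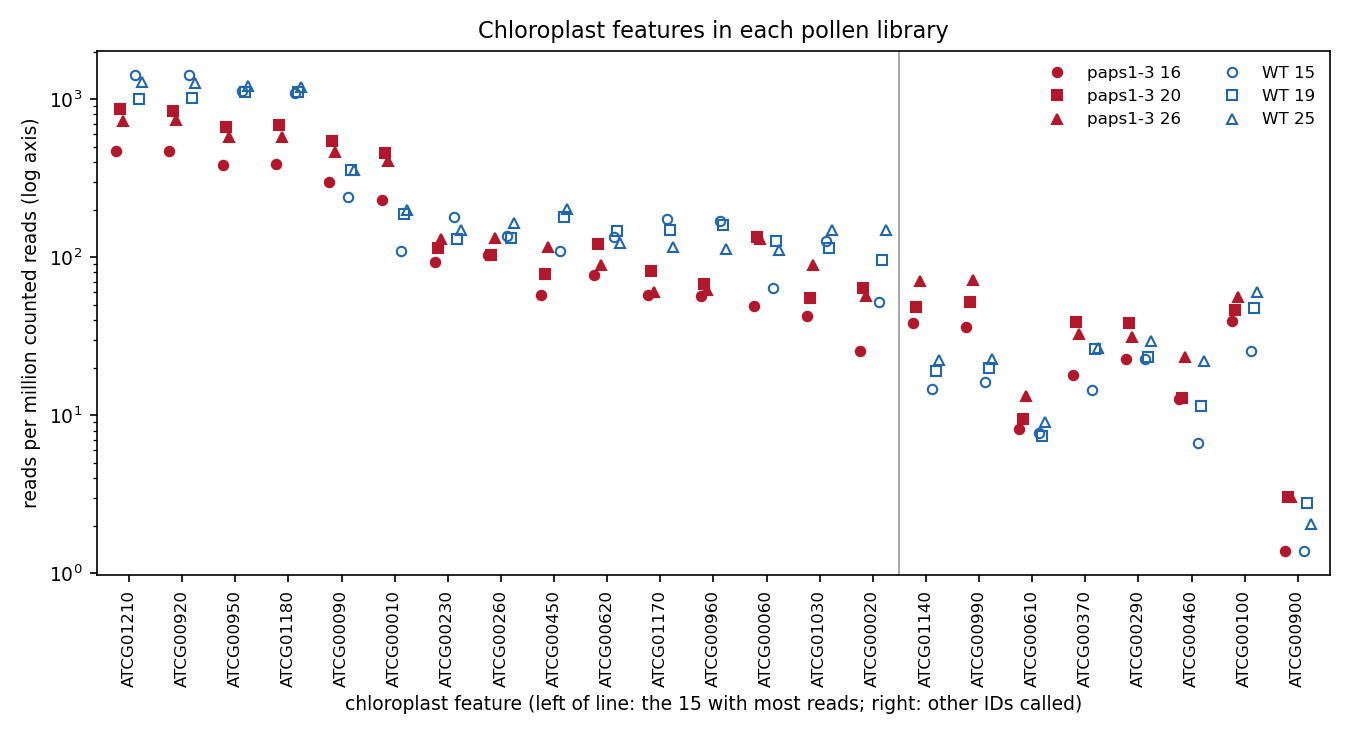
RPM (log axis) of chloroplast features in each library, paps1-3 as filled red symbols and WT as open blue symbols. The 4 features on the left lie at 997 RPM or more in WT and at 865 RPM or less in paps1-3, while ATCG00010, ATCG01140 and ATCG00990 have all paps1-3 libraries above all WT libraries.

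Within the chloroplast reads the makeup also differed. The 4 leading IDs held 42.5%, 46.3% and 42.0% of chloroplast reads in paps1-3 16, 20 and 26, against 60.3%, 49.0% and 50.8% in WT 15, 19 and 25. These libraries did not overlap (means 43.6% ± 2.34 in paps1-3 and 53.3% ± 6.08 in WT, exact permutation p = 0.1, n = 3 each). ATCG00090 held 7.43%, 8.20% and 7.43% in paps1-3 against 2.85%, 4.14% and 3.66% in WT, and ATCG00010 held 5.71%, 6.87% and 6.51% against 1.31%, 2.17% and 2.04%. Both features thus took a larger part of the plastid pool in every paps1-3 library than in any WT library (exact permutation p = 0.1 for each, n = 3 each, Benjamini-Hochberg 0.265 over all shares compared).

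The most abundant features came in pairs that cannot be separated. In 18 pairs of IDs, 36 IDs with 63.0% of chloroplast reads, the counts of the partners, compared at each length in each library, differed by about as much as sampling alone gives, and no pair was identical. ATCG00920 and ATCG01210 had 51715 and 51949 reads in all, within 5% of each other in every library, as had ATCG00950 and ATCG01180 with 46007 and 45678. The chi-square of the difference per length and library was 0.680 to 1.25 over the 18 pairs, with a median of 0.908, where 1 is what sampling alone gives on average. The IDs mirror each other in number, ATCG00830 with ATCG01310 up to ATCG00990 with ATCG01140. Neither partner of a pair is an independent measurement of the other, and 107 features remain when each pair is taken as 1.

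Some plastid IDs also had counts close to those of IDs of other genomes. Among the 56 IDs with at least 1000 reads, ATCG00240 (1269 reads) matched the nuclear tRNA-Tyr pseudogene AT3G20365 (1260 reads), the gene printed above as identical to plastid trnY, with a chi-square per length and library of 1.02. ATCG00250 matched AT3G20362 less closely, at 1.68, and ATCG00030 matched AT1G80280 at 1.79. ATCG00990 and ATCG01140 (1853 and 1813 reads) ran with the mitochondrial ATMG00380 (1925 reads) and with AT2G07764 (2070 reads), the nuclear tRNA-Asn gene printed above, at 1.40 to 1.75. Partners were picked for the closeness of their counts, so these values are descriptions. ATCG00240 and its partner differed by about as much as sampling alone gives, so the counts cannot place their reads in a single genome. The other features resembled their partners but differed from them by more than sampling alone gives. That difference does not place their reads in a single genome either. AT2G07764 shares an unbroken run of 55 bases with plastid trnN, which is longer than any read counted here.

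**Figure D2:**
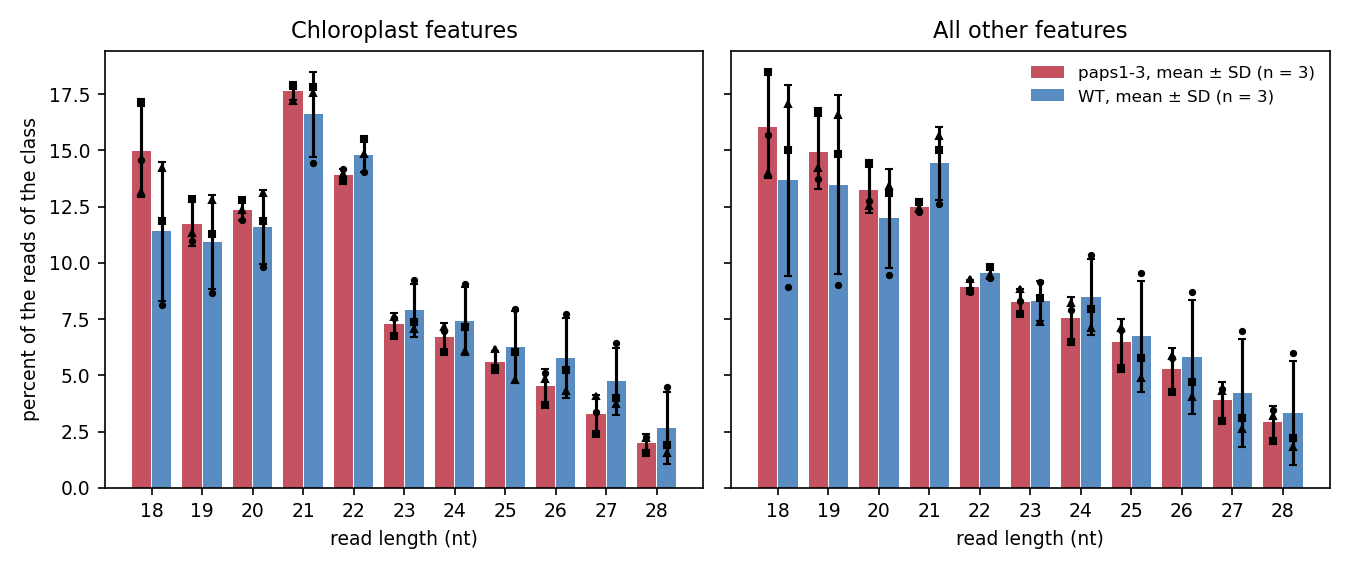
Percent of reads at each length from 18 to 28 nt for chloroplast features (left panel) and all other features (right panel), as mean ± SD of 3 libraries with single libraries as black symbols, paps1-3 left of WT at each length. Chloroplast reads peak at 21 nt in both genotypes, and 21 and 22 nt together hold 31.5% of chloroplast reads and 22.7% of other reads.

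Chloroplast reads peaked at 21 nt in both genotypes, at 17.6% ± 0.387 of chloroplast reads in paps1-3 and 16.6% ± 1.89 in WT (SD, n = 3 each). Reads of 21 and 22 nt together made up 31.5% ± 1.66 of chloroplast reads over the 6 libraries, against 22.7% ± 1.81 of all other reads. The chloroplast share was higher in 6 of 6 libraries, by 8.81 ± 1.70 percentage points (SD, exact two-sided sign-flip permutation p = 0.0312, the smallest that 6 libraries allow). That test took the 6 libraries as independent, although they came from 3 isolations, each split by sorting. Between genotypes the 21 to 22 nt share was 31.6% ± 0.436 in paps1-3 and 31.4% ± 2.58 in WT, and the mean length 21.5 ± 0.235 nt and 21.9 ± 0.564 nt (SD, n = 3 each, exact permutation p = 1 and p = 0.4). At none of the 11 lengths did the genotypes' shares separate (smallest exact p = 0.2, Benjamini-Hochberg 0.733). WT 15 differed from the other libraries in its lengths, with 26.6% of its chloroplast reads at 25 to 28 nt against 14.4% and 17.2% in the other WT libraries, and so did its reads outside the chloroplast, with 31.2% against 13.4% and 15.8%.

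Single features had length profiles of their own. Of 95 IDs with at least 200 reads, 27 were commonest at 21 nt and 38 at 22 nt, 11 were commonest at 18 nt, and 19 IDs had at least 40% of their reads at 1 length. ATCG00980 and its mirrored copy ATCG01150 had 57.3% and 56.5% of their reads at 19 nt. ATCG00060 had 49.9% at 25 nt and ATCG00200 46.8% at 24 nt. ATCG00450 and ATCG01030 were commonest at 27 nt, with 36.2% and 34.3%, and ATCG00230 at 26 nt with 29.5%. ATCG00640 and ATCG00740 had 49.0% and 49.4% at 22 nt, and 88.6% and 83.5% at 21 and 22 nt together. The 4 most abundant IDs had flat profiles instead, with 14.1% to 15.001% of their reads at the commonest length, 21 nt.

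The share of 21 and 22 nt formed a continuous scale, along which a line at 50%, drawn after the values were seen, gave 49 IDs above and 46 below. The 49 IDs held 12.9% of chloroplast reads and had a median of 67.4% of their reads at 21 and 22 nt, and the 46 IDs held 86.2% with a median of 21.5%. The IDs nearest the line had 50.1% and 49.0%. The 6 IDs with a named product all lay above it. Products are given as the annotation text names them and were not checked against the plastid gene records. ATCG00430 (64.8%) is named there photosystem II reaction center protein G, and ATCG00530 (74.4%) a CemA-like protein. ATCG00660 and ATCG01310 are named ribosomal proteins L20 and L2 (large subunit, 53.9% and 64.7%), and ATCG00750 ribosomal protein S11 (small subunit, 81.0%). ATCG00670 (52.7%) is named the plastid-encoded subunit of the Clp protease. All 6 were commonest at 22 nt. The RPM of ATCG00750, the most read of the 6, was 17.0 ± 3.63 in paps1-3 and 26.4 ± 6.54 in WT, and that of ATCG00670 was 9.48 ± 2.81 and 12.1 ± 2.02 (SD, n = 3 each).

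**Figure D3:**
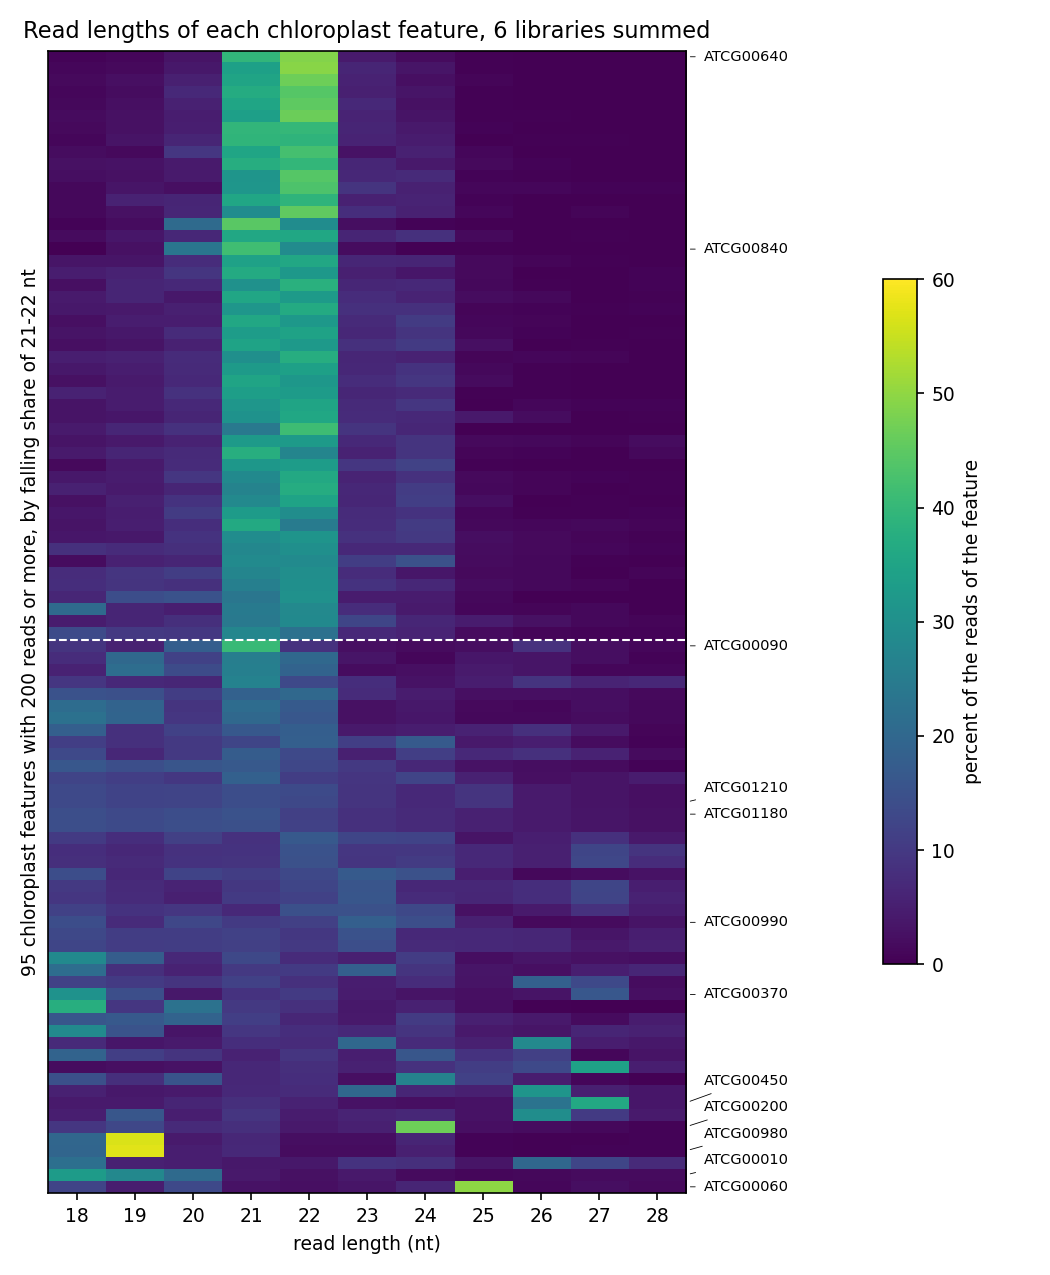
Heat map of the percent of each feature's reads at each length (columns, 18 to 28 nt) for the 95 chloroplast features with 200 reads or more, all 6 libraries summed, ordered by falling share of 21 and 22 nt, with the dashed line at 50%. The upper features have most reads at 21 and 22 nt, while single bright cells below mark features with another preferred length, such as ATCG00980 at 19 nt and ATCG00060 at 25 nt.

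With libraries scaled by TMM, which sets the bulk of features near no change, 10 chloroplast features rose in paps1-3 and 0 fell among the 117 with enough reads to be tested (edgeR quasi-likelihood test, Benjamini-Hochberg at 0.05 over all 13464 features tested). Over all features 14.3% were called higher and 3.99% lower, so the chloroplast share of 8.55% called higher is no more than the background in this fit. The other 8 members, of 10 to 55 reads, were not tested. At an unadjusted p under 0.05 there were 17 chloroplast features, and DESeq2, run with no count filter on 54956 features, called 9 of 125 higher, or 7.20%, and 0 lower (3.11% and 0.442% of all features). Without a count filter edgeR also called 9 of 125 higher, against 3.93% of all features, so the relation to the background depended on the filter. Scaling to miRNA loci gave 19 higher, or 15.97%, against 23.8% of all features (edgeR). The median log2 fold change of the 117 features was 0.0050, against −0.15 for all tested features. Scaling to chloroplast reads gave 7 higher and 1 lower (ATCG00840; background 12.7% and 4.80%), and the block of adjacent library numbers gave 15 higher and 2 lower (ATCG00840 and ATCG01300; background 18.8% and 8.57%). With libraries scaled by total counted reads, 3 of the 117 features were called higher and 53 lower, against 6.02% and 40.3% of all features, and the medians were −0.81 and −0.94. In both scalings the chloroplast median thus lay slightly above the median of all features, by 0.15 and 0.13 on the log2 scale. Libraries of the genotypes did not overlap for 16 features higher and 8 lower on the TMM scale (19.8% and 17.3% of all features), and for 3 higher and 54 lower per counted read (8.18% and 48.2% of all features).

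**Figure D4:**
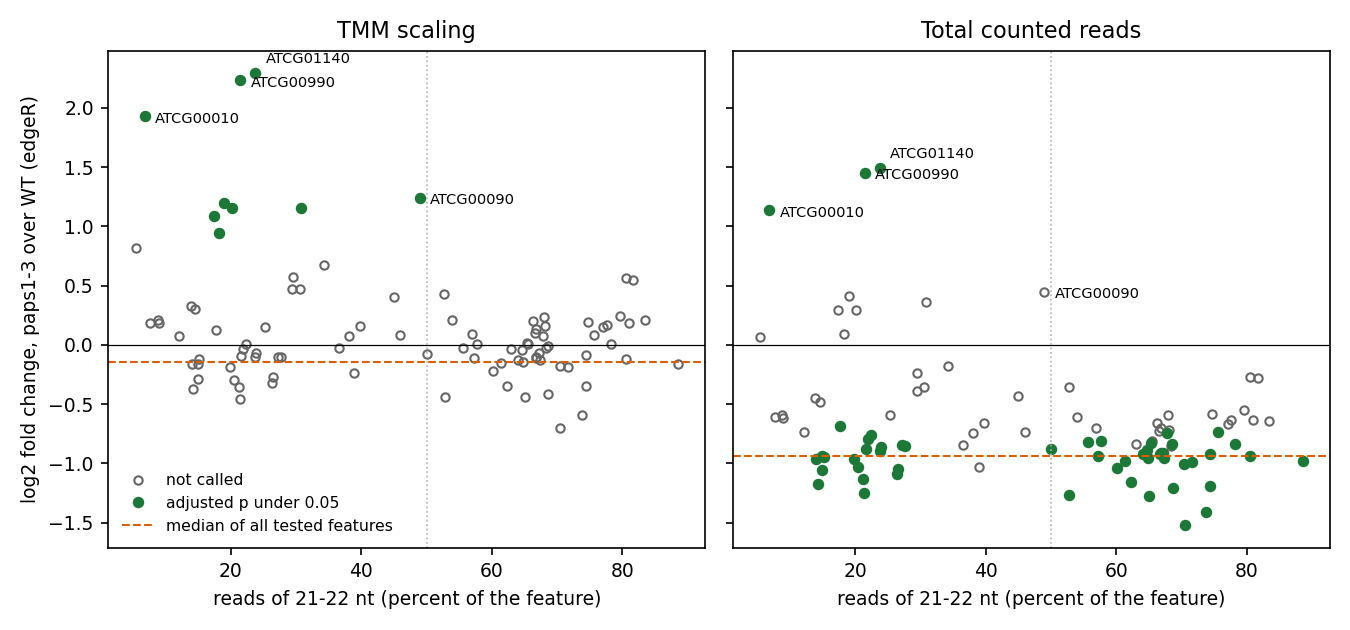
Log2 fold change of paps1-3 over WT (edgeR) against the percent of reads of 21 and 22 nt, 1 point for each of 95 chloroplast features, under TMM scaling (left panel) and total counted reads (right panel), with called features filled. ATCG00990, ATCG01140 and ATCG00010 are the 3 features called higher in both panels, and the cloud of other features moves with the scaling.

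The largest increase among the chloroplast features tested was that of the mirrored pair ATCG01140 and ATCG00990, whose reads could not be placed in a single genome. ATCG01140 had 304, 270 and 697 reads in paps1-3 16, 20 and 26, against 149, 185 and 208 in WT 15, 19 and 25. ATCG00990 had 286, 289 and 711 reads in paps1-3, against 164, 193 and 210 in WT. For both IDs every paps1-3 library exceeded every WT library, although the paps1-3 libraries were mostly the smaller ones. ATCG00990 averaged 53.2 ± 17.8 RPM in paps1-3 and 19.5 ± 3.20 RPM in WT (SD, n = 3 each, ratio 2.73). With TMM, ATCG01140 rose by 2.29 and ATCG00990 by 2.23 on the log2 scale (SE 0.26 each, edgeR, adjusted p = 9.48e-05 and 0.000101), and 1.49 and 1.45 with total counted reads (edgeR adjusted p = 0.00187 and 0.00229).

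The nuclear and mitochondrial features whose counts ran with this pair rose too. AT2G07764 has the same 72 bases as the mitochondrial trnN(GTT) printed above, so reads of this family may be shared. The rises below may therefore not be independent measurements. AT2G07764, the nuclear tRNA-Asn gene, had 356, 339 and 894 reads in paps1-3 against 100, 184 and 197 in WT, and its log2 fold change with TMM was 2.79 with an SE of 0.30 (edgeR, adjusted p = 6.94e-05). The mitochondrial ATMG00380 had 313, 312 and 849 reads in paps1-3 against 107, 169 and 175 in WT, and its log2 fold change was 2.75 with an SE of 0.29 (edgeR, adjusted p = 5.46e-05). The share of mitochondrial reads moved in the same direction, as given above, and its part in the result was not tested. By contrast ATCG00240, which matched the nuclear AT3G20365, had 69, 128 and 148 reads in paps1-3 against 319, 326 and 279 in WT, which did not pass the test at −0.30 on the log2 scale (SE 0.26, adjusted p = 0.473, edgeR with TMM), and −1.03 with total counted reads (edgeR adjusted p = 0.0166).

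ATCG00010 rose in every scaling tried. It had 1818, 2520 and 4026 reads in paps1-3 16, 20 and 26, against 1116, 1822 and 1851 in WT 15, 19 and 25. On the RPM scale these are 230, 453 and 406 in paps1-3 and 110, 187 and 199 in WT, so the genotypes did not overlap, and the ratio of their means was 2.196. The log2 fold change was 1.93 (SE 0.31, edgeR with TMM, adjusted p = 0.00101) and 1.13 with total counted reads (edgeR adjusted p = 0.0101).

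The other 7 features called higher passed with TMM and not with total counted reads. ATCG00090 averaged 567 ± 53.5 CPM on the TMM scale in paps1-3 and 240 ± 22.4 CPM in WT (SD, n = 3 each), 1.24 higher on the log2 scale (SE 0.30, adjusted p = 0.0130, edgeR). ATCG00610 averaged 13.7 ± 2.30 and 6.16 ± 0.772 CPM, ATCG00370 38.3 ± 5.98 and 16.7 ± 3.23 CPM, and ATCG00290 40.7 ± 4.64 and 19.1 ± 1.71 CPM in paps1-3 and WT, with log2 fold changes of 1.16, 1.20 and 1.09 (edgeR adjusted p = 0.00245, 0.00521 and 0.00597). On the TMM scale none of these features overlapped between genotypes, while their RPM values did. ATCG00460 (1.15, edgeR adjusted p = 0.0279), ATCG00100 (0.95, edgeR adjusted p = 0.0389) and ATCG00900 (1.04, edgeR adjusted p = 0.0412) were near the threshold. ATCG00900 had 118 reads in all, and its mirrored copy ATCG01240, with 114 reads, had a log2 fold change of 0.27 and did not pass. ATCG00900 itself did not pass without paps1-3 20, paps1-3 26 or WT 25 (edgeR, adjusted p up to 0.155). Without WT 19, ATCG00090 fell short at an adjusted p of 0.0515 (edgeR); without paps1-3 16, paps1-3 26 or WT 19, ATCG00460 and ATCG00100 did not pass, with adjusted p up to 0.116 and 0.0974 (edgeR). None of the 49 features rich in 21 and 22 nt was called in either direction with TMM, and 9 of the 46 others were called higher, to be read against the 14.3% of all features called higher. That line was drawn after the values were seen, so this is a description with no test of the split. With total counted reads 30 of the 49 were called lower and 0 higher, and of the 46 others 19 were called lower and 3 higher, where 40.3% and 6.02% of all features were.

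The 4 most abundant features did not pass the test with TMM. ATCG01210 and ATCG00920 both stood at −0.10 on the log2 scale (SE 0.34, adjusted p = 0.865 and 0.859, edgeR), and ATCG00950 and ATCG01180 had −0.32 and −0.27 (SE 0.31, edgeR adjusted p = 0.527 and 0.596). With total counted reads all 4 fell, their log2 fold changes being −0.84, −0.85, −1.09 and −1.04 (adjusted p = 0.0228, 0.0211, 0.00662 and 0.00792, edgeR), and with scaling to miRNA loci all 4 had positive values. The mirrored copies ATCG00840 and ATCG01300, both commonest at 21 nt, were lower in paps1-3 per counted read. ATCG00840 had 10.99, 19.2 and 13.5 RPM in paps1-3 16, 20 and 26, against 28.7, 46.9 and 49.4 RPM in WT 15, 19 and 25, and ATCG01300 averaged 15.6 ± 5.53 RPM in paps1-3 and 41.2 ± 9.65 RPM in WT (SD, n = 3 each). No paps1-3 library of either reached a WT library, and ATCG00840 did not pass with TMM (−0.70, SE 0.24, adjusted p = 0.0677, edgeR) but fell by 1.52 on the log2 scale with total counted reads (adjusted p = 0.00213, edgeR). Over all 125 IDs the ratio of mean RPM, paps1-3 over WT, was below 1 in 113 and above 1 in 12, with a median of 0.572. Decreases were common over all features on this scale. With total counted reads the median log2 fold change was −0.94 for all 13464 tested features and −0.81 for the 117 chloroplast features among them (edgeR). With the block of adjacent library numbers, which the data but not the labels pair, ATCG00060 rose by 0.80 (SE 0.17, adjusted p = 0.0021, edgeR), against 0.81 and an adjusted p of 0.106 without the block. The block also changed the calls of ATCG00840, ATCG01300, ATCG00890, ATCG01250, ATCG00390 and ATCG00410, with adjusted p of 0.0070, 0.0162, 0.0288, 0.0302, 0.0130 and 0.0266 (edgeR); the first 2 fell and the others rose. The 6 features with a named product had log2 fold changes of −0.14 to 0.43 with TMM and none passed. With total counted reads ATCG00430, ATCG00530 and ATCG01310 were called lower (edgeR), as were 40.3% of all features. The 6 features are too few to set against that share.

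Within several features the read lengths differed between genotypes, a comparison that does not depend on how libraries are scaled. Of 1045 combinations of a feature and a length among the 95 features, 12 were higher and 4 lower in paps1-3 with no overlap of libraries and a difference in means of at least 10 percentage points. These are 1.15% and 0.383% of the combinations, against 0.902% and 0.965% over all features of 200 reads or more. The exact permutation p of each is 0.1, the smallest possible with n = 3 each, so they are descriptions. They involve 8 of the 9 features called higher among the 95, the exception being ATCG00610. ATCG00900, the other feature called, had 118 reads and was not among the 95. Another 4 features were not called in that fit (ATCG00060, ATCG00150, ATCG00200 and ATCG00240). A gain at 1 length raises both a feature's total and the share of that length, so the 2 results are not independent. ATCG00990 and ATCG01140 are mirrored copies, and the matching share of called features over all features was not computed.

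ATCG00460 had 32.7%, 26.8% and 28.8% of its reads at 23 nt in paps1-3 16, 20 and 26, against 4.41%, 9.82% and 4.88% in WT 15, 19 and 25. At 23 and 24 nt together, ATCG00990 had 31.8%, 39.8% and 43.5% of its reads in paps1-3, against 15.9%, 20.2% and 12.4% in WT. ATMG00380 had 31.0%, 39.4% and 41.5% of its reads there in paps1-3, against 12.2%, 23.1% and 21.1% in WT, and AT2G07764 33.7%, 42.8% and 40.7% against 13.0%, 22.8% and 19.3%. All 3 features, which may share reads, had more of their reads there in each paps1-3 library than in any WT library. Reads of 18 to 20 nt took 32.2%, 30.1% and 21.7% of ATCG00990 in paps1-3 against 42.7%, 52.3% and 62.4% in WT.

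ATCG00370 had 2 preferred lengths that differed in opposite directions. At 27 nt it had 10, 13 and 24 reads in paps1-3 against 47, 63 and 61 in WT, which are 7.04%, 6.05% and 7.38% of its reads in paps1-3 and 32.2%, 24.7% and 24.6% in WT. At 18 nt it had 63, 92 and 116 reads in paps1-3 against 21, 61 and 53 in WT, or 44.4%, 42.8% and 35.7% against 14.4%, 23.9% and 21.4%. The 27-nt reads were lower and the 18-nt reads higher in every paps1-3 library, the 27-nt reads also in RPM (2.01 ± 0.645 in paps1-3 and 5.88 ± 1.08 in WT). ATCG00090 had 3.08%, 4.65% and 6.46% of its reads at 26 nt in paps1-3 against 10.3%, 14.4% and 11.9% in WT, and 46.2%, 46.9% and 44.9% at 21 nt against 30.6%, 36.7% and 35.4%.

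At 18 nt, ATCG00010 had 40.6%, 43.5% and 36.1% of its reads in paps1-3 against 16.5%, 24.04% and 22.1% in WT. At 20 nt it had 14.0%, 13.7% and 19.2% in paps1-3 and 13.1%, 31.9% and 33.5% in WT, where WT 15 lay with the paps1-3 libraries. The 18-nt share was also higher in paps1-3 for ATCG00290, at 37.7% ± 1.48 against 19.7% ± 10.7 in WT (SD, n = 3 each). It was 45.7% ± 6.23 and 27.9% ± 9.86 for ATCG00100, and 38.1% ± 3.57 and 25.1% ± 10.4 for ATCG00240. WT 15 lay far below the other WT libraries for each. In WT 15, 19 and 25 the shares were 7.39%, 26.8% and 24.9% for ATCG00290, and 16.5%, 32.6% and 34.5% for ATCG00100. For ATCG00240 they were 13.5%, 28.5% and 33.3%, against 35.8% or more in paps1-3. WT 15 was also the lowest library at 18 nt among reads outside the chloroplast, at 8.91%. How far WT 15 sets these differences was not tested. For ATCG00200 the 24-nt peak was smaller in paps1-3, with 18.5%, 37.2% and 34.8% against 41.1%, 57.0% and 57.0% in WT, and for ATCG00060 the 25-nt peak, with 29.05%, 49.1% and 48.9% against 54.9%, 54.4% and 50.9%.

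**Figure D5:**
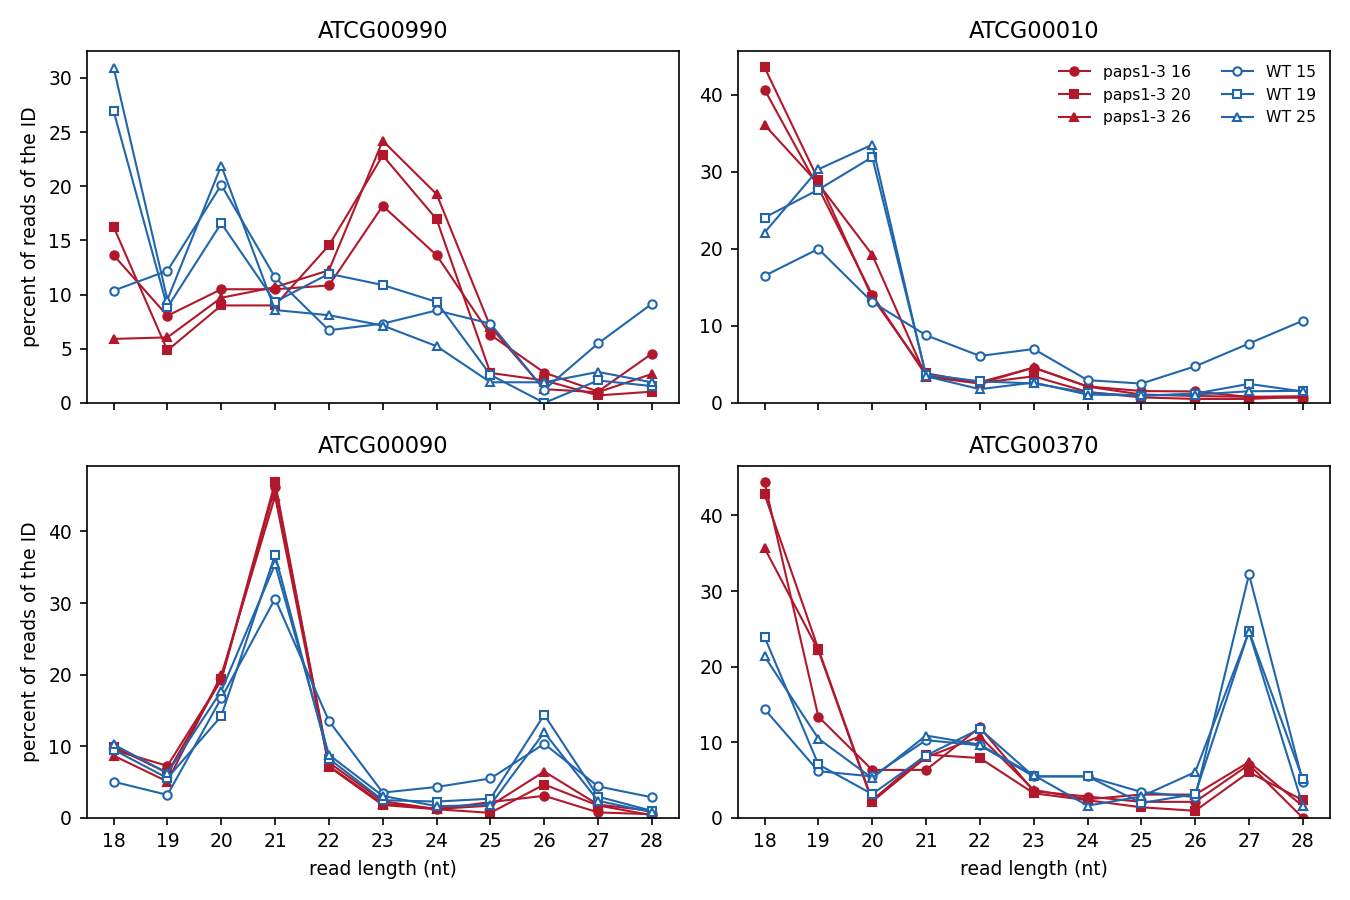
Percent of a feature's reads at each length from 18 to 28 nt in each library, paps1-3 as filled red symbols and WT as open blue symbols, for 4 features called higher in paps1-3. ATCG00990 peaks at 23 nt in paps1-3 and at 18 or 20 nt in WT, ATCG00010 has more 18-nt reads in paps1-3, and ATCG00370 has a 27-nt peak that is 24.6% or more of its reads in WT and at most 7.38% in paps1-3.

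In fits by length class with TMM, increases were no commoner than over all features, and decreases were commoner among long reads. At 18 to 20 nt, 8 of 83 tested features rose and 2 fell (edgeR; 9.64% and 2.41%, against a background of 18.8% higher and 6.90% lower), the 2 being the mirrored copies ATCG00840 and ATCG01300 with log2 fold changes of −1.30 each (SE 0.29 and 0.32, edgeR adjusted p = 0.0117 and 0.0181). ATCG00840 had 25, 25 and 23 such reads in paps1-3 against 76, 127 and 130 in WT, with no overlap. At 21 to 24 nt, 9 of 117 rose, or 7.69%, and 0 fell (edgeR; background 13.4% and 3.47%; 16 at an unadjusted p under 0.05 in either direction), led by ATCG00990 (3.15), ATCG01140 (3.11) and ATCG00460 (2.03). The median log2 fold change was −0.25 at 18 to 20 nt and 0.047 at 21 to 24 nt, against −0.13 and −0.11 for all features of those lengths. With the adjacent library numbers as a block, 16 rose and 2 fell at 21 to 24 nt (edgeR; background 17.9% and 6.86%), and 11 rose and 8 fell at 18 to 20 nt (24.7% and 20.3%). With total counted reads, 5 rose and 42 fell at 21 to 24 nt (6.43% and 40.4%), and 3 rose and 34 fell at 18 to 20 nt (8.38% and 40.1%). Scaling to chloroplast reads of 21 to 24 nt gave 8 higher and 1 lower (12.3% and 5.58%).

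At 25 to 28 nt, 2 of 44 tested features rose, again ATCG00990 and ATCG01140, and 14 fell, among them the 4 most abundant IDs at −0.66 to −0.93 on the log2 scale (edgeR; 4.55% higher and 31.8% lower, against a background of 24.2% and 17.4%). These 4 IDs are 2 mirrored pairs, so the counts include partners that are not independent. The fit with mirrored pairs summed was run over all lengths only, where 8 of 99 rose and 0 fell (edgeR, 8.08% higher, against a background of 14.3% higher and 3.98% lower). The median of the 44 features at 25 to 28 nt was −0.64, against 0.01 for all features of that length. The count moved with single libraries: 31 fell without WT 15, the library rich in long reads, 5 without paps1-3 26 and 7 without paps1-3 16 (edgeR), which are 66.0%, 10.6% and 14.9% of the features tested, against 19.9%, 11.1% and 13.7% of all features. The median stayed between −0.84 and −0.45 with any 1 library left out. With total counted reads 17 fell, and with RLE factors, another scaling, also 17 (edgeR; 38.6% each, against 25.3% and 19.8% of all features). With the block 25 fell and 2 rose (background 23.5% and 30.7%). Scaling to the chloroplast reads of that length, which centres these features by construction, gave 0 lower and 3 higher (background 3.03% and 48.9%). The chloroplast share of all reads of 25 to 28 nt was 0.312%, 0.584% and 0.526% in paps1-3 against 0.719%, 0.936% and 1.05% in WT, and did not overlap.

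Of 19 nuclear genes for plastid RNA metabolism, 17 were in the tables, 4 had enough small RNA reads to be tested and 1 rose. With TMM 14.3% of all features were called higher, and 4 genes are too few to set against that share. SIGA (AT1G64860, also called SIG1), a sigma factor of the plastid-encoded RNA polymerase, had 18, 24 and 36 reads in paps1-3 against 1, 9 and 8 in WT, with no overlap (3.21 higher on the log2 scale, SE 0.44, adjusted p = 0.000316, edgeR). SIGC (0.42), SIGF (1.09, edgeR adjusted p = 0.0677) and PTAC3 (0.13), a component of the plastid transcription machinery, did not pass. Small RNA reads on these genes do not measure their messenger RNAs.

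Summed marker lists of leaf, tapetum and the pollen vegetative cell moved with the chloroplast share. The 15 leaf photosynthesis genes of the nucleus, none of them at 0 in all libraries, summed to 6.44 to 12.8 RPM in paps1-3 and 16.9 to 27.8 RPM in WT. Of these 4 were tested and 0 called, where 18.3% of all features were called in either direction (edgeR with TMM). CAB1, at −0.74, was the 1 at an unadjusted p under 0.05 (edgeR). The 9 tapetum genes, of which 0 had enough reads to be tested, summed to 1.31 to 2.52 RPM in paps1-3 and 2.56 to 3.45 RPM in WT, and the 5 vegetative-cell genes to 903 to 1390 RPM and 1428 to 1700 RPM, so all 3 lists were lower in paps1-3 per counted read without overlap, as were 48.2% of all features on that scale. Their part in the chloroplast result was not tested. The vegetative-cell genes mark the labelled tissue. All 5 were tested, and PPME1 (1.61) and AtVEX1 (2.37) rose and PTEN1 (−2.12) fell on the log2 scale (edgeR with TMM, adjusted p = 0.00221, 0.000235 and 0.000176). In that fit 14.3% of all features were called higher and 3.99% lower. VGD1, a pollen pectin methylesterase, held most of the summed reads, with 4534 to 9842 in paps1-3 and 10049 to 11728 in WT. Per counted read the 5 genes did not move together. VGD1, AT5G45880 and PTEN1 were lower in every paps1-3 library than in any WT library. PPME1 was higher without overlap, at 162 to 233 RPM in paps1-3 and 95.8 to 122 RPM in WT. AtVEX1 was too, at 3.96 RPM or more in paps1-3 and 1.78 RPM or less in WT.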

How the data were processed

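The deposited tables hold raw read counts per annotated segment and read length, not normalised, per the file headers. The submitters' processing notes name the tools Trimmomatic, BWA, bedtools and SAMtools and the build TAIR10. Not given in the sources used here: how strand, and reads with several matching places, were treated, which bears on the mirrored and shared features. Libraries were made from whole RNA with a TruSeq small RNA kit and read on an Illumina sequencer (labels' protocols). The members, lists, alternatives and tests were chosen with earlier results of these data known.

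Counts were summed per ID and tested over all features with edgeR 4.0.16 in R 4.3.3 (robust quasi-likelihood, filterByExpr, TMM), with DESeq2 1.42.0 as an alternative. Shares were compared with exact permutation tests. TMM factors were 0.546 to 0.893 in paps1-3 and 1.12 to 1.53 in WT, so results are also given per counted read. Named features were the 15 with most reads, the 8 of each direction with the smallest p among those called, those with at least 200 reads and 40% at 1 length, and those with counts within 5% of another ID; ATCG00030, ATCG00100, ATCG00150, ATCG00240, ATCG00250, ATCG00390, ATCG00410, ATCG00830, ATCG00900, ATCG01240 and the IDs with a named product were added after their values were seen. So were the fit without WT 15 and paps1-3 16 and that with mirrored pairs summed. Classes of plastid genes were not analysed here, because 6 IDs alone are paired with a product. Sequences came from RefSeq TAIR10.1, whose positions apply to that assembly. Python 3.11.15, pandas 2.3.3 and scipy 1.17.1 were used. Libraries of adjacent number correlated in their deviations from the genotype means (r = 0.458, 0.290 and 0.279 across features, other pairs −0.351 to 0.145) and were the blocks of the blocked fit. The edgeR step was tested on simulated data.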

Additional observations from a re-analysis of the deposited data

How the results depend on the processing

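All fits here are edgeR with TMM unless named. Over all lengths, 3 features rose and 53 fell with total counted reads, 19 rose with scaling to miRNA loci (15.97%, below the 23.8% of all features), 1 fell with scaling to chloroplast reads, and 15 rose and 2 fell with the replicate block of adjacent library numbers, against 10 and 0; leaving out 1 library gave 7 to 12 higher and 0 lower. At 18 to 20 nt (8 and 2), total counted reads gave 3 and 34, no count filter gave 4 higher (1.70% of all features), the block 8 lower, and 1 library left out 6 to 7 higher and 1 to 3 lower. At 21 to 24 nt (9 and 0), total counted reads gave 5 and 42, chloroplast scaling 1 lower, the block 16 and 2, and 1 library left out 7 to 12 higher and 0 lower. In each fit with 1 library left out, the share called higher was smaller for chloroplast features than for all features. Over all lengths it was 5.83% to 10.1% against 8.78% to 17.6%. It was 6.67% to 8.86% against 11.3% to 18.5% at 18 to 20 nt, and 5.93% to 10.2% against 7.53% to 15.2% at 21 to 24 nt. At 18 to 20 nt 1.98% to 7.39% of all features were called lower, with a larger chloroplast share only without paps1-3 16 (2.198% against 1.977%). At 25 to 28 nt (2 and 14), chloroplast scaling gave 0 lower, the block 25 lower, and 1 library left out 1 to 2 higher and 5 to 31 lower. ATCG00990, ATCG01140 and ATCG00010 passed in every fit over all lengths that was run for them; with mirrored pairs summed, ATCG01140 was counted within ATCG00990.

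Signs of features that were not called with TMM changed as follows. With total counted reads ATCG00230 had −0.45, ATCG00260 −0.35 and ATCG00620 −0.48. With miRNA loci ATCG00020 had 0.16, ATCG00450 0.22, ATCG00920 0.26, ATCG00950 0.041, ATCG01030 0.091, ATCG01180 0.088 and ATCG01210 0.26. Without WT 15 and paps1-3 16, ATCG00920 had 0.34, ATCG01030 0.022 and ATCG01210 0.35. With 1 library left out the ranges were −0.33 to 0.11 for ATCG00020, −0.26 to 0.0035 for ATCG00450, −0.25 to 0.33 for ATCG00920, −0.57 to 0.10 for ATCG01170 and −0.25 to 0.34 for ATCG01210; the cause was not tested.

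The log2 ratio of chloroplast shares was −0.70, and −0.83 to −0.48 with 1 library left out. It was −0.53 without mitochondrial features in the denominator, and 0.062 with nuclear rRNA, tRNA, snRNA and snoRNA features also left out. The difference in the makeup was 1.46 points for ATCG00990 with ATCG01140 and 2.22 points at 21 to 24 nt, and 4.53 points for ATCG00010, 5.12 points without the ID with most reads and 1.19 points at 21 to 24 nt. The counts limit features of few reads, such as ATCG00900. Gene classes of the plastid were not run.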

Other observations

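The 4 entries that join 2 chloroplast IDs held 4744 reads and were not members. With them added, 10 of 121 chloroplast features tested rose and 0 fell (edgeR with TMM, 8.26% higher, against a background of 14.3% higher and 3.99% lower). With them counted, the chloroplast share was 0.568% ± 0.141 in paps1-3 and 0.905% ± 0.0758 in WT (SD, n = 3 each). ATCG00270,ATCG00280 had 126, 173 and 350 reads in paps1-3 16, 20 and 26, and 368, 546 and 727 in WT 15, 19 and 25. ATCG00470,ATCG00480 had 112, 108 and 182 reads in paps1-3 and 192, 285 and 350 in WT, and ATCG01000,ATCG01010 had 68, 82 and 131 in paps1-3 and 129, 211 and 214 in WT. ATCG00800,ATCG00810 had the fewest, with 40, 28 and 52 reads in paps1-3 and 54, 95 and 121 in WT.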
